A study of Mus musculus with 96 samples.

Results

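The MLL-AF9 leukaemia that started from LSK cells was followed here on its own, in mice that received no other barcoded leukaemia, and its clones were compared between 2 hosts. The libraries were chosen by their labels: bone marrow and spleen of every recipient whose tumour was LSK alone, which gave 14 of the 48 mouse tissues and cell pools in the series. They came from 3 Ptprca mice (mice 1 to 3) and 4 NSG mice (mice 9 to 12). The cells injected were sampled once as a pool before transplantation, which served as the reference for both hosts. Clones were the 1251 GFP-named barcodes listed for both hosts, the barcode library that the labels assign to LSK-derived cells, and 1209 of them had reads in the pool.

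All groups shared the same donor material. LSK cells (Lin-, c-Kit+, Sca-1+), the marrow fraction that holds the blood stem cells and the earliest progenitors, were sorted from female C57BL/6 donors. They were transduced with an MLL-AF9 retrovirus, grown in IL-3, IL-6 and SCF, and marked with a SPLINTR barcode library. MLL-AF9 is a fusion oncogene of acute myeloid leukaemia that keeps progenitors in a self-renewing state. Each barcode stands for a founder cell and its progeny, and its share of reads estimates the share of barcoded leukaemia cells descended from that founder. Ptprca mice carry the CD45.1 form of the pan-leukocyte antigen on a C57BL/6 background and have an intact immune system. NSG mice lack T, B and NK cells and have a NOD background, so immune status and strain background cannot be told apart in this design. The ages of the recipients, the cell dose and the time of harvest are not in the labels, and no host cell or marker gene was measured.

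Each library held between 5475418 and 8499553 barcode reads, and the pool held 5871935. Reads outside the LSK barcode library made up 0.0147% to 0.141% of a mouse library, against 0.0077% of the pool, so every library matched its labelled tumour. The marrow of NSG mouse 11 stood apart among traces, with 252 clones of at least 1 read against 73 to 132 in the other NSG marrows, but not at 10 CPM, where it held 55 against 51 to 73. A clone with no reads could still hold up to 3 reads, which is 3.53e-05% to 5.48e-05% of a mouse library. Levels are given as percent of the LSK reads of a library, or as CPM (reads per 1000000), where 100 CPM equals 0.01%. These are shares of a whole: a clone that falls cannot be told apart from other clones that grow, and the size of the leukaemia was not measured. Replicates are mice, and host differences were tested by exact two-sided permutation of the host labels over 35 assignments, whose smallest possible p is 0.0286. The 32 host tests were of this kind, and 4 tests against GMP leukaemia permuted the cell of origin within each host over 2450 assignments, with a smallest possible p of 0.000408. Benjamini-Hochberg adjustment ran over all 36 tests, of which 25 passed 0.05.

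The LSK leukaemia kept about 3 times as many clones in the marrow of Ptprca mice as in that of NSG mice. At or over 100 CPM, the marrow of Ptprca mice 1, 2 and 3 held 110, 113 and 126 clones, and that of NSG mice 9, 10, 11 and 12 held 38, 35, 37 and 49. The groups did not overlap, and the ratio of geometric means was 2.95 (exact permutation p = 0.0286, adjusted p = 0.0411). The pool held 679 clones at that level, so both hosts carried a minority of them.

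The marrow difference was present at every minimum. At or over 10 CPM the means were 193.0 ± 14.7 (SD, n = 3) in Ptprca mice and 58.0 ± 10.1 (n = 4) in NSG mice, a ratio of 3.36. At or over 1000 CPM they were 57.0 ± 3.61 and 21.2 ± 3.86, a ratio of 2.71. At or over 10000 CPM, where a clone makes up at least 1% of the leukaemia, they were 14.3 ± 0.577 and 7.0 ± 1.41, a ratio of 2.08. The groups did not overlap at any of these minima (exact permutation p = 0.0286 and adjusted p = 0.0411 at each).

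In spleen the excess of clones was largest among the small ones. At or over 10 CPM, the spleens of Ptprca mice 1, 2 and 3 held 175, 165 and 192 clones and those of NSG mice 9 to 12 held 67, 65, 60 and 74, a ratio of 2.67 (exact permutation p = 0.0286, adjusted p = 0.0411). At or over 100 CPM the counts were 65, 65 and 73 against 37, 34, 34 and 46, a ratio of 1.80 with the same exact p. At or over 1000 CPM they were 26, 22 and 25 against 21, 19, 16 and 17, without overlap. That difference did not pass (ratio 1.34, exact permutation p = 0.0571, adjusted p = 0.0735). At or over 10000 CPM they were 11, 8 and 9 against 9, 6, 7 and 8, and the groups overlapped (exact permutation p = 0.2, adjusted p = 0.24).

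**Figure D1:**
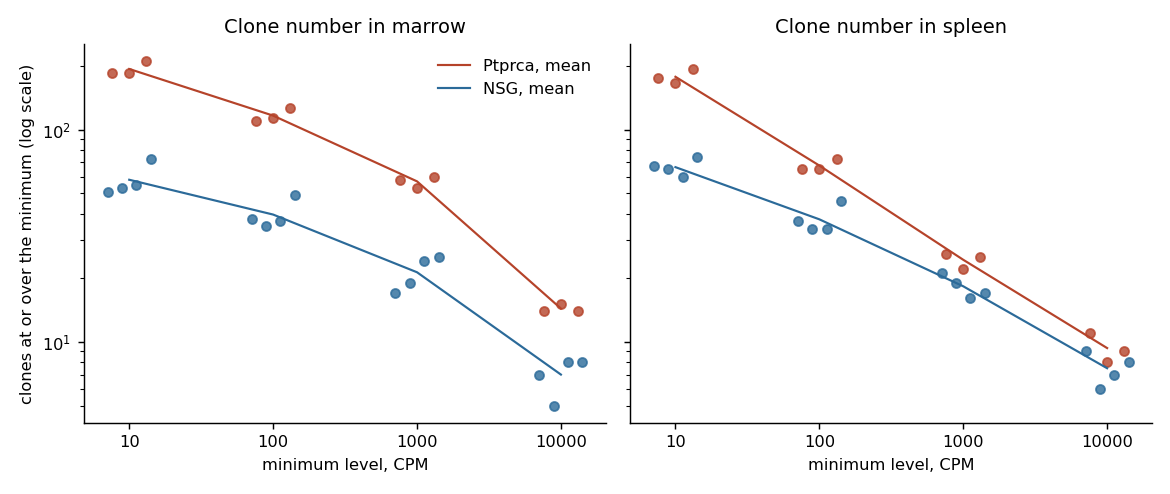
Number of LSK clones (log scale) at or over 4 minimum levels in CPM, in marrow (left) and spleen (right). Points are single mice, 3 Ptprca and 4 NSG, and lines join the group means. In marrow the hosts stay apart at every minimum, 14 or 15 clones against 5 to 8 at 10000 CPM, while in spleen they meet at the highest.

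Diversity weighted by clone size differed between the hosts in marrow. The effective number of clones, taken as the exponential of the Shannon entropy so that equal clones count once each, was 19.4, 15.6 and 20.3 in the marrow of Ptprca mice 1 to 3. It was 6.76, 5.64, 7.03 and 7.58 in the marrow of NSG mice 9 to 12, a ratio of 2.73 with no overlap (exact permutation p = 0.0286, adjusted p = 0.0411). In spleen it was 7.77, 6.20 and 7.11 against 6.81, 5.78, 6.49 and 6.5, and the groups overlapped (exact permutation p = 0.286, adjusted p = 0.321). The inverse Simpson index, which weights the largest clones more, was lower in the spleens of Ptprca mice, at 4.20, 3.33 and 3.63 against 4.66, 4.51, 4.99 and 4.94. The sign of the spleen difference therefore depended on the index. The pool held 296 effective clones by Shannon entropy.

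Dominance took a different form in each tissue. The largest clone held 27.2%, 33.0% and 23.7% of the marrow of Ptprca mice and 28.9%, 27.4%, 32.5% and 24.4% of that of NSG mice, and the groups overlapped (difference -0.35 points, exact permutation p = 0.857). In spleen it held 44.1%, 51.4% and 48.5% in Ptprca mice and 33.9%, 28.1%, 29.6% and 27.0% in NSG mice. The spleen groups did not overlap and differed by 18.3 points (exact permutation p = 0.0286, adjusted p = 0.0411). The 10 largest clones of a library held 77.3 ± 1.42% of the marrow of Ptprca mice (SD, n = 3) and 96.0 ± 1.83% of that of NSG mice (n = 4). That difference of -18.7 points had no overlap (exact permutation p = 0.0286, adjusted p = 0.0411). In spleen the 10 largest held 94.1 ± 1.37% and 97.1 ± 0.896% (exact permutation p = 0.0571, adjusted p = 0.0735).

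**Figure D2:**
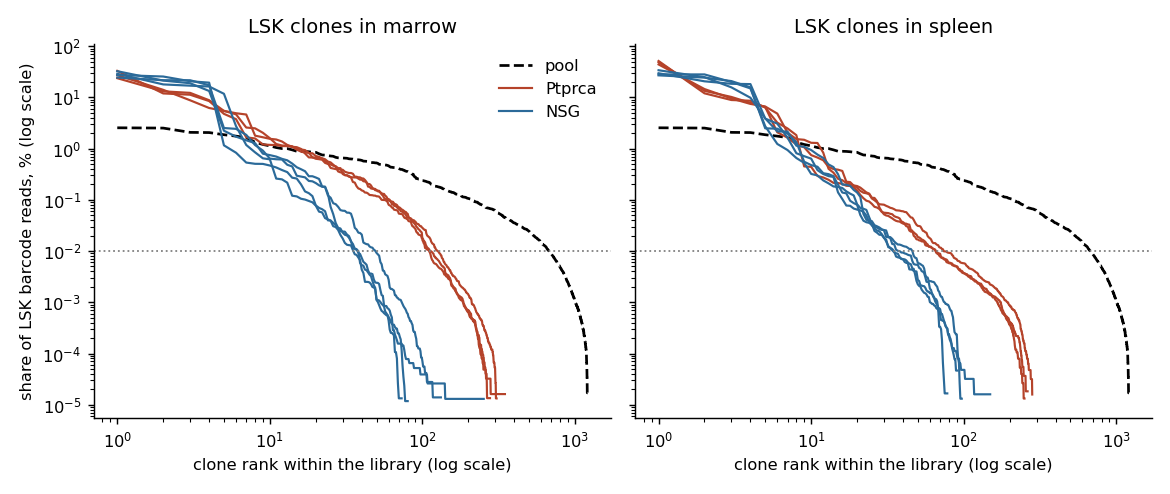
Share of LSK reads (percent, log scale) against clone rank within the library (log scale) in marrow (left) and spleen (right), with 1 line per mouse and the pool dashed. The dotted line marks 0.01%, or 100 CPM. The NSG curves drop after the first 4 or 5 clones in both tissues, and the Ptprca marrow curves fall more slowly.

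The same 4 clones led in both hosts and both tissues. GFP_Barcode_1859, GFP_Barcode_7785, GFP_Barcode_29850 and GFP_Barcode_100907 were among the 5 clones of highest mean share in each of the 4 groups, and none ranked lower than 6 in any of the 14 libraries. Together they held 3.64% of the pool. In marrow they held 54.9%, 64.8% and 58.0% in Ptprca mice 1 to 3 and 63.0%, 93.1%, 86.1% and 85.0% in NSG mice 9 to 12. In spleen they held 74.8%, 78.4% and 80.0% against 84.4%, 91.3%, 86.9% and 87.9%. They were not the largest clones before transplantation, with pool ranks of 60, 3, 44 and 48.

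Their order differed by host. GFP_Barcode_1859 was the largest clone in all 6 Ptprca libraries, and in NSG mice it was the largest in both tissues of mouse 12 only. In marrow it held 27.2%, 33.0% and 23.7% in Ptprca mice against 16.3%, 19.4%, 13.3% and 24.4% in NSG mice, and the groups overlapped. In spleen it held 44.1%, 51.4% and 48.5% against 15.7%, 20.0%, 18.2% and 27.0%, without overlap. From 0.462% of the pool (95% Wilson interval 0.457% to 0.468%), its mean share was 104-fold higher in the spleens of Ptprca mice and 43.7-fold higher in those of NSG mice.

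GFP_Barcode_29850 had the opposite pattern. It held 4.91%, 8.49% and 13.2% of the marrow of Ptprca mice and 17%, 27.4%, 32.5% and 21.7% of that of NSG mice. In spleen it held 6.64%, 6.34% and 7.84% against 33.9%, 28.1%, 29.6% and 15.7%, and the hosts did not overlap in either tissue. It was the largest clone of both tissues of NSG mouse 11, of the marrow of mouse 10 and of the spleen of mouse 9. GFP_Barcode_100907 was also larger in NSG mice, at 18.7 ± 1.49% of marrow (SD, n = 4) against 9.63 ± 1.44% (n = 3), and 20.7 ± 4.78% of spleen against 11.7 ± 1.96%. GFP_Barcode_7785 held 12.8 ± 1.13% and 20.1 ± 5.87% of the marrow of Ptprca and NSG mice, and 11.1 ± 3.08% and 19.9 ± 7.53% of the spleen, and the hosts overlapped in both tissues.

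Below these 4, several clones separated the hosts or the tissues. GFP_Barcode_16972 held 5.46%, 4.78% and 4.68% of the marrow of Ptprca mice and 0.26%, 0.429%, 0.632% and 0.45% of that of NSG mice. Its spleen shares were 1.49%, 3.22% and 2.09% against 0.115%, 0.21%, 0.14% and 0.477%. GFP_Barcode_2255 was larger in spleen than in marrow in Ptprca mice, at 7.46%, 8.90% and 6.52% of spleen but 1.18%, 1.17% and 0.274% of marrow in the same animals. In NSG spleens it held 0.492%, 0.528%, 3.87% and 2.45%. Starting from 0.0391% of the pool, its mean was 195-fold higher in the spleens of Ptprca mice. GFP_Barcode_20873, at 0.0181% of the pool, reached 2.17%, 1.23%, 3.07% and 1.97% of NSG spleens and 1.30%, 0.187% and 0.40% of Ptprca spleens, with overlap.

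A single clone grew in a single mouse. GFP_Barcode_148344 held 28.9% of the marrow and 3.89% of the spleen of NSG mouse 9, where it was the largest marrow clone. In the other 3 NSG mice it held at most 0.000306% of marrow and 7.73e-05% of spleen. In Ptprca mice it held at most 0.0228% of marrow, although it ranked 11 in the pool at 1.05%. Its NSG mean therefore rests on mouse 9.

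**Figure D3:**
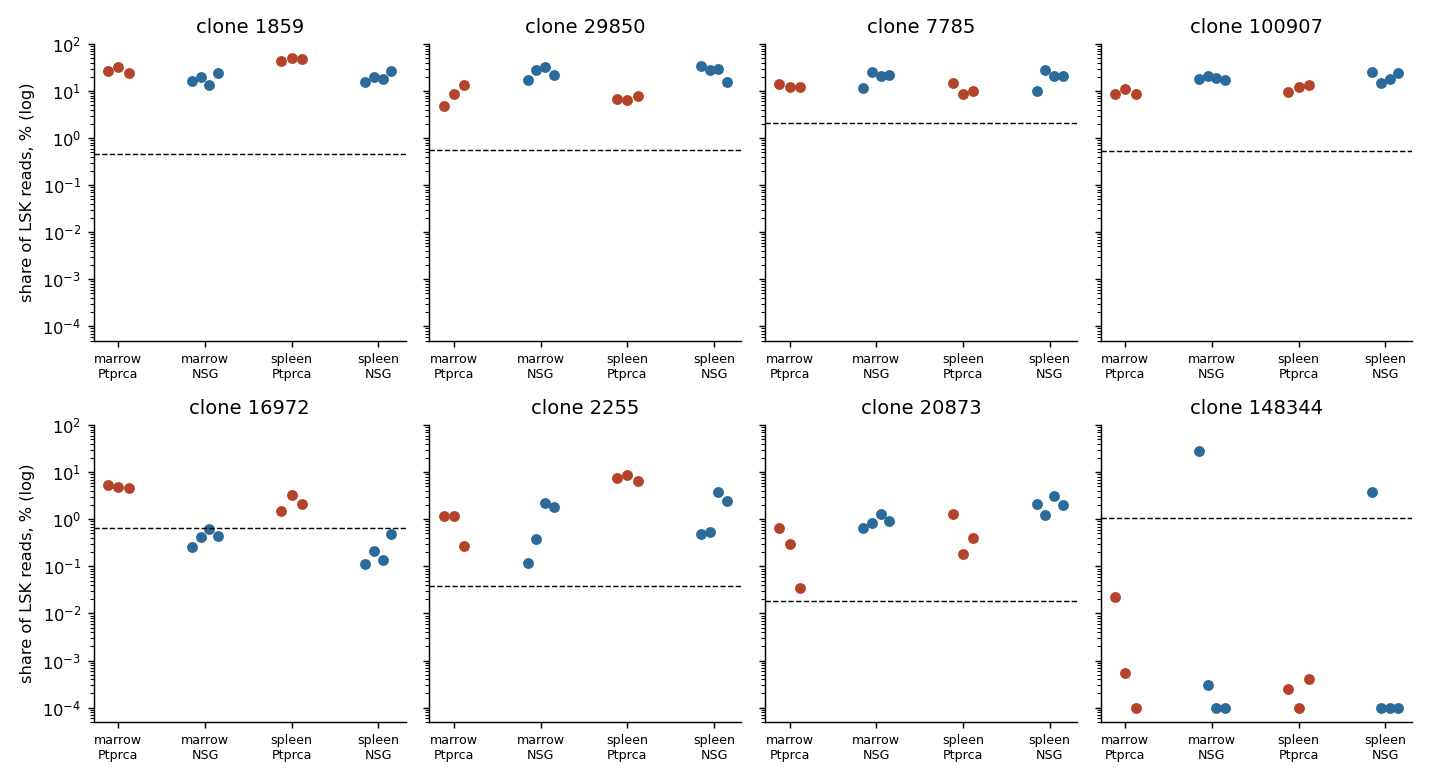
Share of LSK reads (percent, log scale) of 8 clones in each mouse, by tissue and host, with the pool share dashed. Values under 0.0001% are drawn at 0.0001%. GFP_Barcode_1859 is highest in Ptprca spleens, GFP_Barcode_29850 is higher in NSG mice in both tissues, and GFP_Barcode_148344 exceeds its pool share in NSG mouse 9 only.

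Single clones were compared by limma with a mean-variance trend on log2(CPM + 10), a scale that understates differences of low clones, with Benjamini-Hochberg adjustment over all clones with a mean of at least 100 CPM. In marrow 120 clones were tested. The share of 64 of them was higher in Ptprca mice (53.3% of those tested) and that of 2 was lower (1.67%). In spleen 61 were tested, with 19 higher (31.1%) and 3 lower (4.92%). The median of all tested clones was 3.95 log2 units in marrow and 1.84 in spleen, Ptprca minus NSG, and many of those clones passed the filter through Ptprca mice. Over the clones with both means at or over 100 CPM the medians were 3.08 and 1.27. Once each library was centred on its median clone, 1 marrow clone was called higher and 24 lower, and 3 spleen clones were called higher and 6 lower. In the marrow of NSG mice 9, 10 and 11 the median tested clone lay below 10 CPM, a level that only 51, 53 and 55 clones reached. The shift by centring in marrow therefore rests in part on the filter and on the 10 CPM added. Many calls came from clones nearly absent from NSG mice: of the 64 marrow clones, 44 had an NSG mean under 100 CPM, and 69 of the 120 tested passed the filter through Ptprca mice alone. With edgeR and TMM scaling the calls were 18 higher and 6 lower in marrow, and 0 higher (8 at an unadjusted p under 0.05) and 1 lower in spleen, and DESeq2 called 31 and 16, and 4 and 8. The 19 spleen calls fell to 11, 6 and 11 without Ptprca mice 1, 2 and 3. Of the 47 marrow clones with both means at or over 100 CPM, 20 were called higher and 2 lower, and of the 43 such spleen clones, 8 were called higher and 3 lower.

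The largest called differences were for clones that were large in the pool and nearly lost in NSG mice. GFP_Barcode_3877 ranked 5 in the pool at 1.87% and held 0.691%, 0.65% and 0.831% of the marrow of Ptprca mice. In NSG marrow it had no reads in mice 9 and 10, and 0.000741% and 5.56e-05% in mice 11 and 12. The log2 difference was 9.28 in marrow and 6.99 in spleen. GFP_Barcode_15551, GFP_Barcode_87062 and GFP_Barcode_814 had log2 differences of 7.87, 7.66 and 7.61 in marrow. These 4 clones passed the filter through Ptprca mice alone, which fixed their direction, so the values are a description and no p is given. GFP_Barcode_128363, whose NSG marrow mean of 0.0167% lay over the minimum through mouse 12, had a difference of 7.24. Of these 5 clones, GFP_Barcode_3877 alone was called higher in marrow after centring, in the direction that the filter had fixed.

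The spleen calls included some of the same clones. GFP_Barcode_814, GFP_Barcode_12105, GFP_Barcode_128363 and GFP_Barcode_125674 had log2 differences of 5.39, 5.33, 5.13 and 4.75 in spleen. There they too passed the filter through Ptprca mice alone, which fixed their direction. Whether a method called them is therefore a description and no test of the host. None of these 4 spleen calls was made by edgeR, with TMM (adjusted p = 0.173 to 0.230) or without it (adjusted p = 0.102 to 0.126), and DESeq2 made only that of GFP_Barcode_128363. GFP_Barcode_814 and GFP_Barcode_125674 were not called after centring either (limma adjusted p = 0.0704 and 0.0763). These clones stayed below their own pool share there: GFP_Barcode_12105, at 1.75% of the pool, held 0.0435%, 0.0662% and 0.0984% of Ptprca spleens and at most 0.00454% of NSG spleens.

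The clones called lower in Ptprca mice were GFP_Barcode_29850 and GFP_Barcode_100907 of the 4 leading clones and, in spleen, GFP_Barcode_20873, which ranked 6 or 7 in NSG spleens and 10 to 18 in Ptprca spleens. GFP_Barcode_29850 fell by 1.55 log2 units in marrow (SE 0.356, limma adjusted p = 0.00808) and fell by 1.90 in spleen (SE 0.302, adjusted p = 0.00333). GFP_Barcode_100907 fell by 0.96 in marrow (limma adjusted p = 0.00553) and by 0.81 in spleen (adjusted p = 0.0461). Without the trend neither marrow call was made (limma adjusted p = 0.110 for GFP_Barcode_29850 and 0.234 for GFP_Barcode_100907), nor was that of GFP_Barcode_29850 with no minimum (adjusted p = 0.0672). GFP_Barcode_20873 fell by 2.12 in spleen (limma adjusted p = 0.0461). With the mouse as a replicate block this spleen call was lost (adjusted p = 0.0704), while its marrow difference of -2.22, not called in the single-tissue fit (adjusted p = 0.102), was called (adjusted p = 0.0385). The spleen call was also lost in 5 of 7 fits that left out 1 mouse, as the spleen call of GFP_Barcode_100907 was in 6 of 7. GFP_Barcode_1859 was higher by 0.63 in marrow (limma adjusted p = 0.0455) and by 1.27 in spleen (adjusted p = 0.00395), but relative to the median clone the differences were -5.82 and -0.65. Its marrow call was lost in 6 of 7 fits that left out 1 mouse. GFP_Barcode_16972 was higher by 3.55 in marrow (limma adjusted p = 0.00147), a sign that also turned after centring, to -2.90. In marrow both turns rest in part on median clones that lay below 10 CPM in NSG mice 9, 10 and 11.

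**Figure D4:**
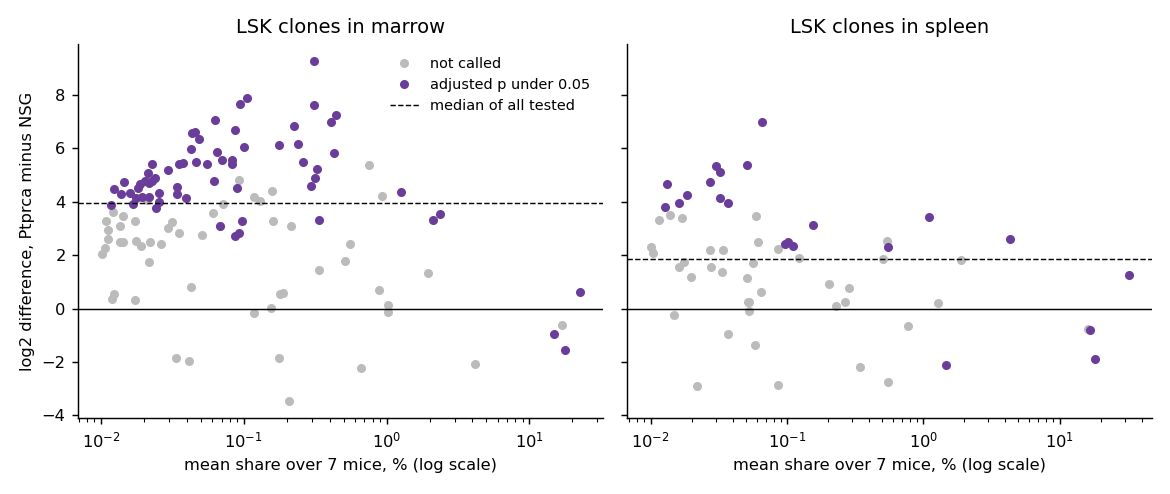
Log2 difference in share between hosts (Ptprca minus NSG, from limma) against the mean share over 7 mice (percent, log scale), with 120 clones in marrow (left) and 61 in spleen (right). The dashed line is the median of all tested clones, 3.95 in marrow and 1.84 in spleen. Most clones lie above 0, and the clones called lower are among the largest.

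Most clones found in NSG mice were also found in Ptprca mice. In marrow, 189 clones reached 100 CPM in at least 1 Ptprca mouse and 69 in at least 1 NSG mouse, and 60 were in both sets, 31.7% of the Ptprca set and 87.0% of the NSG set. In spleen the sets held 99 and 61 clones and shared 50, or 50.5% and 82.0%. A core of 19 clones reached 100 CPM in the marrow of all 7 mice, with 8.33% of the pool. It held 80.1 ± 2.42% of the marrow of Ptprca mice (SD, n = 3) and 89.6 ± 13.9% of that of NSG mice (n = 4). The 129 marrow clones found in Ptprca mice only held 4.82% to 8.60% of a Ptprca library. Of these, 19 reached 100 CPM in all 3 Ptprca mice. Only 9 marrow clones were found in NSG mice alone, and 0 of them reached 100 CPM in all 4. That set is small and the condition of 4 mice is stricter than that of 3, so the hosts are not compared by these counts.

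Averaged over pairs of mice, the rank order of clones was more alike within a host than between hosts, but not among Ptprca marrows. Over the 198 clones at or over 100 CPM in at least 1 marrow library, Spearman's rho averaged 0.589 within a host and 0.522 between hosts. That difference of 0.067 was the largest of the 35 assignments (exact permutation p = 0.0286, adjusted p = 0.0411). In marrow it came from NSG pairs, which averaged 0.62 (range 0.538 to 0.718), while Ptprca pairs averaged 0.518 (0.441 to 0.577). Of the 198 clones, 129 reached 100 CPM in Ptprca mice only, and the marrows of NSG mice 9 and 10 held 73 and 80 clones with any read. Many ranks in those marrows were therefore ties at 0, so rho there counts shared absence as well as shared order. Without NSG mouse 10 the difference was 0.018, without mouse 9 it was 0.040, and without Ptprca mice 1 and 2 in turn it was 0.105 in each case. In spleen, over 110 clones, both kinds of pair averaged about the same, at 0.70 for Ptprca and 0.70 for NSG, against 0.601 between hosts (exact permutation p = 0.0286, adjusted p = 0.0411). Restricted to clones at or over 1000 CPM in the pool, neither tissue passed (exact permutation p = 0.0857 in marrow and 0.0571 in spleen). Among the 10 largest clones of a marrow library, pairs of Ptprca mice shared 7 to 8, pairs of NSG mice 6 to 7 and pairs across hosts 4 to 6.

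Clones that were larger in the pool were found more often, in both hosts. Found means at or over 100 CPM, so a clone larger in the pool could fall further and still be counted. The rise with pool size was therefore partly given in advance. The 87 clones at or over 3000 CPM in the pool made up 61.4% of it. Of these, 41, 45 and 48 reached 100 CPM in the marrow of Ptprca mice 1 to 3, and 17, 14, 13 and 18 in that of NSG mice 9 to 12. In spleen the counts were 27, 32 and 32 against 14, 12, 12 and 15. Of the 237 clones at 100 to 300 CPM in the pool, 16, 11 and 11 were found in the marrow of Ptprca mice and 4, 7, 6 and 8 in that of NSG mice. Of those at 1000 to 3000 CPM, 123 in all, the marrow of Ptprca mice held 22, 27 and 35 and that of NSG mice 10, 7, 10 and 10.

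**Figure D5:**
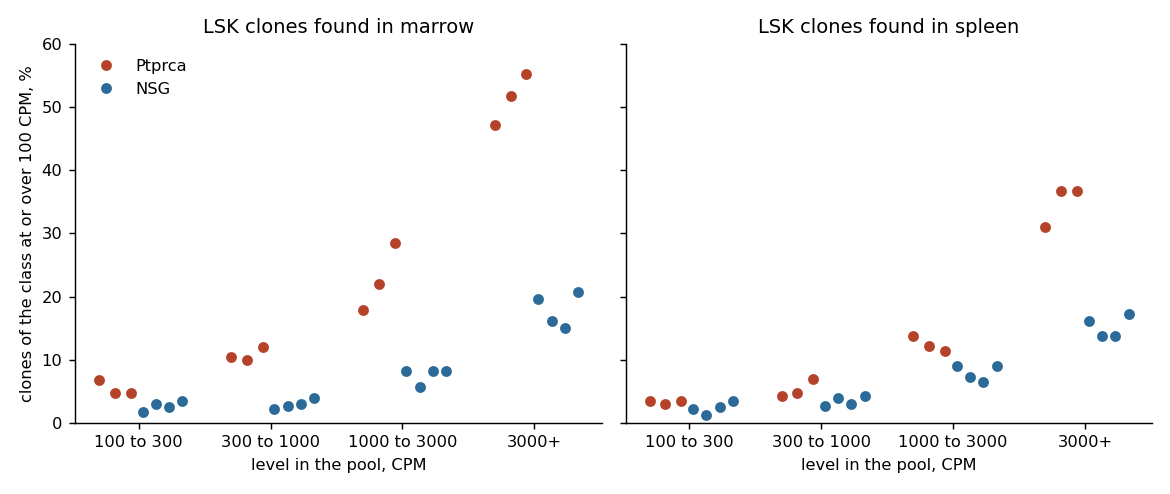
Percent of the clones of each pool class that reached 100 CPM in marrow (left) and spleen (right), with 1 point per mouse. The classes hold 237, 232, 123 and 87 clones. With a fixed 100 CPM, clones larger in the pool can fall further and still be counted. In the largest class 47.1% to 55.2% were found in the marrow of Ptprca mice and 14.9% to 20.7% in that of NSG mice.

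The median clone fell far below its pool level in every class. In the class at or over 3000 CPM, the median log2 fold over the pool was -6.34, -5.33 and -4.82 in the marrow of Ptprca mice 1 to 3 and -8.76, -8.80, -8.87 and -8.70 in that of NSG mice 9 to 12. The hosts differed by 3.29 log2 units (exact permutation p = 0.0286, adjusted p = 0.0411). In spleen the difference was 1.74, with the same exact p. With 1 CPM or 100 CPM added in place of 10, the difference was 6.34 or 0.88 in marrow and 4.55 or 0.46 in spleen, so its direction was kept and its size was set by the amount added. In the 3 smaller classes the host differences were 0.12, 0.22 and 0.37 in marrow and 0.08, 0.19 and 0.31 in spleen, and the groups did not overlap. Many of these clones had no reads, so that their log2 values rest on the amount added. In marrow a mean of 77.2% of the smallest class had none in Ptprca mice and 92.1% in NSG mice. In the largest class 4, 20 and 17 of the 87 clones had none in Ptprca mice 1 to 3, and 61, 60, 6 and 44 in NSG mice 9 to 12. The summed share of the largest class ran the other way, at 77.7 ± 3.82% of marrow in Ptprca mice (SD, n = 3) and 91.7 ± 3.85% in NSG mice (n = 4). That class includes GFP_Barcode_7785 and the other 3 leading clones.

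Fold over the pool was also described by the size a clone reached. These classes were set on the recipient level, which is also the numerator of the fold. Its rise with size was therefore given in advance. The clones at or over 10000 CPM stood a median 3.57 ± 0.169 log2 units above their pool level in the marrow of Ptprca mice (SD, n = 3) and 5.10 ± 0.173 in that of NSG mice (n = 4). In spleen the medians were 4.64 ± 1.26 and 5.38 ± 0.189. Clones at 1000 to 10000 CPM stood 0.33 ± 0.243 and 1.42 ± 0.597 above the pool in marrow, and 0.58 ± 0.425 and 1.93 ± 0.359 in spleen. At 100 to 1000 CPM the medians lay below the pool, and the order of the hosts turned in marrow, at -1.71 ± 0.556 in Ptprca and -2.61 ± 0.783 in NSG mice, but not in spleen, at -3.06 ± 0.504 and -2.12 ± 0.363. These differences by size were not tested. Counted over all sizes, 56, 46 and 49 marrow clones at or over 100 CPM exceeded their own pool share in Ptprca mice. In NSG mice 18, 17, 22 and 29 did, a ratio of 2.39 (exact permutation p = 0.0286, adjusted p = 0.0411). All clones at that level numbered 110, 113 and 126 against 38, 35, 37 and 49, a ratio of 2.95. The ratio of expanded clones was thus no larger than that of clone number, and the fraction expanded was not tested. In spleen 27, 21 and 27 of 65, 65 and 73 clones exceeded their pool share in Ptprca mice. In NSG spleens 20, 16, 16 and 22 of 37, 34, 34 and 46 did, with overlap (exact permutation p = 0.114, adjusted p = 0.142). Clones over 10 times their pool share numbered 19, 15 and 16 in the marrow of Ptprca mice and 7, 7, 11 and 12 in that of NSG mice (exact permutation p = 0.0571, adjusted p = 0.0735), and 8, 10 and 8 against 8, 9, 8 and 9 in spleen.

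The host differences in clone number, effective clones and the 10 largest clones were larger in marrow than in spleen, by a test within mice. For clones at or over 100 CPM the marrow exceeded the spleen by 0.78 ± 0.0201 log2 units in Ptprca mice (SD, n = 3) and by 0.07 ± 0.0404 in NSG mice (n = 4). For effective clones the excess was 1.39 ± 0.109 and 0.07 ± 0.119. The share of the 10 largest clones differed by -16.8 ± 0.418 points, marrow minus spleen, in Ptprca mice and by -1.08 ± 2.50 in NSG mice. For the largest clone, by contrast, the host difference was 18.3 points in spleen and -0.35 points in marrow. Its marrow minus spleen differences were -20.0 ± 4.17 points in Ptprca mice and -1.36 ± 3.31 in NSG mice. Each of these 4 marrow minus spleen differences, compared between hosts, had an exact permutation p of 0.0286 (adjusted p = 0.0411).

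The LSK clones of mice that received LSK and GMP leukaemia together gave a set of separate animals. There, 131 clones were tested in marrow and 55 in spleen, with 44 higher in Ptprca mice (33.6%) and 2 lower (1.53%) in marrow, and 18 higher (32.7%) and 2 lower (3.64%) in spleen. The 44 marrow calls fell to 25, 29 and 28 without NSG mice 21, 22 and 23, and the 18 spleen calls to 11 without Ptprca mouse 19. After centring no clone was called higher in either tissue, with 0 and 2 at an unadjusted limma p under 0.05, and 16 were called lower in marrow and 6 in spleen. Of the 64 clones called higher in the marrow of LSK recipients, 45 were tested in the mixed mice and 27 were called in the same direction. Of the 19 spleen clones, 15 were tested and 11 were called in the same direction. Of those called lower, 1 of 2 in marrow and 1 of 3 in spleen were called in the same direction. The 27 and 11 calls include clones that passed the filter through Ptprca mice alone, which fixed their direction. Among these, GFP_Barcode_814 and GFP_Barcode_3877 had NSG means of 0% in marrow, and of 0.000417% and 0.00027% in spleen. Such clones were not counted, so the 27 and 11 are a description. The sign was nearly given by the shift of all clones in the mixed mice, where 120 of 131 marrow and 42 of 55 spleen clones had a positive difference, with medians of 3.37 and 2.46. GFP_Barcode_1859 held 57.8 ± 4.80% of the LSK reads of Ptprca spleens (SD, n = 4) and 24 ± 10.5% of those of NSG spleens (n = 4) in the mixed mice. GFP_Barcode_29850 held 6.10 ± 2.29% and 24.6 ± 17.3%.

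The host difference in clone number was also set against that of GMP leukaemia alone, which was started from a later progenitor. At or over 100 CPM the Ptprca to NSG ratio was 2.95 in LSK and 2.64 in GMP marrow (exact permutation p = 0.495), and 1.80 and 1.84 in spleen (exact permutation p = 0.932). For effective clones in marrow the ratio was 2.73 in LSK and 1.56 in GMP recipients, a difference of 0.80 log2 units (exact permutation p = 0.0094, adjusted p = 0.0411), which by the inverse Simpson index was 0.40 (exact permutation p = 0.0804). In spleen the ratios were 1.10 and 0.989 (exact permutation p = 0.242).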

How the data were processed

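Barcodes were counted in genomic DNA, per the labels, although their extraction protocol describes a droplet preparation. The authors deposited values in CPM, filtered and with the 2 PCR duplicates of a tissue collapsed into 1 column that sums to 1000000. Bowtie 1.2.2 and R 3.6 were used, per the submitters' processing notes, and the aligner settings and filters are not given in the sources used here. The values were whole multiples of 1 read for 100% of values within 0.01 of a read in the 51 columns. GFP barcodes listed in both hosts' tables were rescaled to 1000000 within each library.

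Mice were the replicates, so PCR duplicates counted once. The p-values measure the spread between these mice. Host differences used exact permutation tests (scipy 1.17.1), and single clones used limma 3.58.1 on log2(CPM + 10) for clones with a mean of at least 100 CPM. Alternatives used edgeR 4.0.16 and DESeq2 1.42.0 on the recovered reads. Marrow and spleen of a mouse are paired by animal. A fit of both tissues with the mouse as a replicate block gave a consensus correlation of 0.252 for the marrow and 0.277 for the spleen contrast. The reads carry no molecular identifiers, so intervals and zero limits describe counting error alone. Clones named were the 5 of highest mean share in each host and tissue, and up to 5 called per direction and tissue by the size of the log2 difference. The members, lists and tests were chosen with earlier results of these data known, and the 4 tests of clones over their pool share were added after seeing the data. The fits were tested on simulated data. Barcode sequences were not used here.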

Additional observations from a re-analysis of the deposited data

Results flagged for a closer look

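The host difference was not the same in marrow and spleen. Tested within mice, the host effect in marrow exceeded that in spleen by 0.71 log2 units for clones at or over 100 CPM and by 1.32 for effective clones. It differed by -18.7 points for the largest clone and by -15.7 points for the 10 largest. The host effect on effective clones in marrow was 0.80 log2 units larger in LSK than in GMP recipients.

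In several clones 1 NSG mouse stood far from the other 3, by the gap to its neighbour relative to the range. For normally distributed values chance gives such a gap in about 1 of 20 groups, and 44 were examined. Several of these groups hold 0 or few reads, so that rate does not apply to them. Where the other 3 mice had 0 reads, the gap equals the range whatever the value. The number of such groups was not tested against chance. GFP_Barcode_148344 held 28.9% of marrow and 3.89% of spleen in mouse 9. GFP_Barcode_12105 held 0.0896% of marrow and 0.00454% of spleen in mouse 9. GFP_Barcode_814 held 0.00355% of marrow and 0.0104% of spleen in mouse 11. GFP_Barcode_3877 held 0.000741% of marrow in mouse 11 and 0.000767% of spleen in mouse 10. GFP_Barcode_87062 held 5.2e-05% of marrow in mouse 11 and 1.6e-05% of spleen in mouse 10, which are 4 reads and 1 read against 0 in the other NSG mice. The second is under the 3 reads that a count of 0 allows, so no difference is read from it. GFP_Barcode_15551 held 0.000974% of spleen in mouse 11. In marrow of mouse 12, GFP_Barcode_125674 held 0.0538% and GFP_Barcode_128363 held 0.061%.

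Reads outside the LSK barcode library reached 0.141% in the spleen of NSG mouse 10, against 0.0077% in the pool.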

How the results depend on the processing

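After leaving out 1 of the 7 LSK recipients, no exact host test can reach 0.05, so those values were judged by size alone. The LSK minus GMP test of effective clones in marrow could, and its exact permutation p ran from 0.000816 to 0.0229. Every host difference in clone number, effective clones, the 10 largest and the median fold over the pool kept its sign without any 1 mouse. The largest marrow clone did not (-2.88 to 1.77 points), nor did spleen clones over 10 times their pool share (-0.08 to 0.08 log2). Using CPM as deposited or keeping only barcodes with pool reads moved no exact host test of clone number, effective clones or the shares of the largest and 10 largest clones across 0.05. Neither did listing barcodes of either table, which was also run for the median folds. Leaving out the 2 libraries with the most reads from other barcode libraries moved no host difference by over 1 SD.

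Clones with any read, thinned to a common depth, gave a marrow difference of 1.45 log2 (exact permutation p = 0.0571). The inverse Simpson index gave -0.37 log2 in spleen, and the 20 largest spleen clones gave -1.91 points, both with an exact permutation p of 0.0286. Rank order no longer passed over clones at or over 1000 CPM in the pool (0.064 in marrow, 0.092 in spleen), over clones at that level in at least 1 spleen library (0.092), or by shared clones of the 10 largest in spleen (0.58 clones). The summed share of a pool class, in place of its median, gave 0.24 and -0.33 log2 in marrow and spleen at 100 to 300 CPM, 1.13 in marrow at 300 to 1000, 0.34 in spleen at 1000 to 3000, and -0.24 and -0.14 at or over 3000. The LSK minus GMP difference in spleen clone number was 0.20 at 10 CPM and 0.33 at 1000 CPM, and -0.095 to 0.073 without 1 mouse. For effective clones by the inverse Simpson index, the LSK minus GMP difference was 0.40 in marrow (exact permutation p = 0.0804) and -0.23 in spleen.

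Calls of single clones depended on scaling, and are given as higher and then lower in Ptprca mice. Centring gave 1 and 24 in marrow and 3 and 6 in spleen, and 0 and 16, and 0 and 6, in the mixed mice, where 0 and 2 clones were higher at an unadjusted limma p under 0.05. edgeR with TMM gave 18 and 6 in marrow and 0 and 1 in spleen, with 8 spleen clones higher at an unadjusted p under 0.05. DESeq2 gave 31 and 16, and 4 and 8. edgeR without TMM gave 3 and 1 in spleen. A minimum mean of 1000 CPM gave 13 higher in marrow and 5 in spleen, and in spleen a minimum of 10 CPM gave 56, no minimum 42 and a pool minimum of 1000 CPM 44. No minimum left 1 lower in each tissue, and limma without trend left 0 in marrow (0 also at an unadjusted p under 0.05) and 1 in spleen. The replicate block gave 81 and 3 in marrow and 20 and 2 in spleen, so that pairing the tissues changed no count by over 1.5 times. Among named clones the block lost the spleen call of GFP_Barcode_20873 (limma adjusted p = 0.0704) and added its marrow call (adjusted p = 0.0385). Without 1 mouse, spleen calls ran from 6 to 20 higher, with 11, 6 and 11 without Ptprca mice 1, 2 and 3, and from 1 to 3 lower. In the mixed mice they ran from 25 to 44 and 1 to 3 in marrow, and 11 to 18 and 1 to 2 in spleen.

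In marrow, GFP_Barcode_1859 turned to -5.82 after centring, -2.66 by edgeR with TMM and -3.89 by DESeq2, and GFP_Barcode_16972 to -2.90 after centring and -1.31 by DESeq2. GFP_Barcode_1859 in spleen turned to -0.65 after centring and -0.34 by DESeq2. GFP_Barcode_2255, not called in marrow (0.14), took values of -6.31 after centring, -3.78 and -0.39 by edgeR with and without TMM, -5.17 by DESeq2 and -0.69 to 0.84 without 1 mouse. Centring subtracts the median clone of each library, so it shifts the differences of all clones in a tissue by the same amount. In the marrow of NSG mice 9, 10 and 11 that clone lay below 10 CPM. The amount in marrow therefore rests in part on the filter and on the 10 CPM added. The cause of the other changes was not tested.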

Other observations

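The marrow of NSG mouse 11 differed from the other NSG marrows among clones with very few reads. It held 252 clones with at least 1 read, against 73, 80 and 132 in mice 9, 10 and 12, but 37 at or over 100 CPM against 38, 35 and 49. Over the 679 clones at or over 100 CPM in the pool, Spearman's rho with the pool was 0.528 in that library and 0.267, 0.235 and 0.258 in the others. In the marrow of Ptprca mice 1 to 3 it was 0.515, 0.394 and 0.43. The source of these low reads was not tested.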
